A study of Mus musculus with 45 samples.

Results

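The urea cycle and ammonia handling genes described here were Cps1, Otc, Ass1, Asl, Arg1, Nags, Slc25a15, Oat, Glul and Gls2, 10 of the 24972 rows of a table of liver transcript levels. They were chosen by name for their roles in urea synthesis and in the making and breakdown of glutamine, and all 10 were found. The choice was made with earlier results of these data known. The 45 libraries are bulk RNA sequencing of lysed whole liver of wild-type (WT) mice, taken at 3 stages. Ethanol was given in the Lieber-DeCarli liquid diet, a standard feeding model of alcohol-associated liver disease. Peak injury followed 6 weeks on the ethanol or the control diet. For early resolution the ethanol diet was followed by the control diet for 3 days, and for late resolution by the control diet for 2 weeks. Each stage held livers labelled ethanol male, ethanol female, control male and control female. Of these 12 groups, ethanol female at early resolution and both ethanol groups at late resolution held 3 libraries, and the other 9 held 4. The sources used here give neither strain nor age, nor how control-labelled mice were fed during resolution. Levels are in TPM, which scale reads to transcript length and each library to a fixed total, so that levels can be set against each other between genes but the sequencing depth is unknown. Nothing in the labels ties each library of a group to its own animal. A p-value here therefore speaks of the spread among libraries, which may be technical.

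The transcripts that tell male from female liver followed the diet label and not the sex label. In all 21 ethanol-labelled libraries Xist, made from the silenced X chromosome of females, stood between 13.68 and 51.82 TPM. In 23 of 24 control-labelled libraries the Y-linked gene Eif2s3y stood between 7.828 and 12.65 TPM instead. The exception was the library labelled late resolution control female 1, with Xist at 39.54 TPM and Eif2s3y listed at 0. In 22 of 45 libraries the sex label and these transcripts were at odds. A difference between the diet labels therefore cannot be told apart from a difference between male and female liver, and groups are called ethanol-labelled, control-labelled, male-labelled and female-labelled throughout. A library named as peak ethanol male 1 or the like is named by its labels. Wrong sex labels, wrong diet labels and wrong or exchanged tags in the column names of the table cannot be told apart here, and any of them would change what the differences between the labels below stand for. Male-labelled and female-labelled libraries of the same diet label carried the same sex transcripts, apart from that exception. The labelled tissue carried its markers. The hepatocyte genes Alb, Apoa1, Ttr, Serpina1c and Cyp2e1 together made up 8.93% to 21.7% of TPM, and 25 marker genes of other liver cell types together 0.0311% to 0.0844%.

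Ammonia from amino acid breakdown is toxic to the brain, and the liver removes it by separate routes in different hepatocytes. Hepatocytes around the portal vein run the urea cycle. Cps1 joins ammonia and bicarbonate in the mitochondrion, Nags makes the N-acetylglutamate that Cps1 needs, and Otc passes the carbamoyl group to ornithine. Ass1 and Asl then build arginine in the cytosol, Arg1 splits it into urea and ornithine, and the carrier Slc25a15 returns ornithine to the mitochondrion. Gls2 releases ammonia from glutamine in the same periportal cells. Hepatocytes around the central vein catch the ammonia that escapes with glutamine synthetase, encoded by Glul, and hold much of the Oat, which turns ornithine towards glutamate.

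The members spanned a wide range of levels. Over the 45 libraries Ass1 averaged 1927 ± 700 TPM, Arg1 1802 ± 305 TPM and Glul 1230 ± 203 TPM (SD). Cps1 averaged 876 ± 304 TPM and Asl 805 ± 187 TPM, followed by Oat at 254 ± 97.8 TPM. Slc25a15 averaged 90.7 ± 30.4 TPM, Otc 89.8 ± 19.7 TPM, Gls2 61.7 ± 19.6 TPM and Nags 10.8 ± 2.11 TPM. In that order of levels Ass1 and Arg1, Cps1 and Asl, and Slc25a15 and Otc were neighbours whose means differed by less than the SD of either. The 10 members together held between 0.484% and 0.953% of TPM in a library, with a median of 0.715%. Glul and Arg1 varied least, their highest library standing 1.97-fold and 2.13-fold above their lowest. Oat, Ass1 and Cps1 varied most, over 5.62-fold, 5.14-fold and 5.11-fold.

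**Figure D1:**
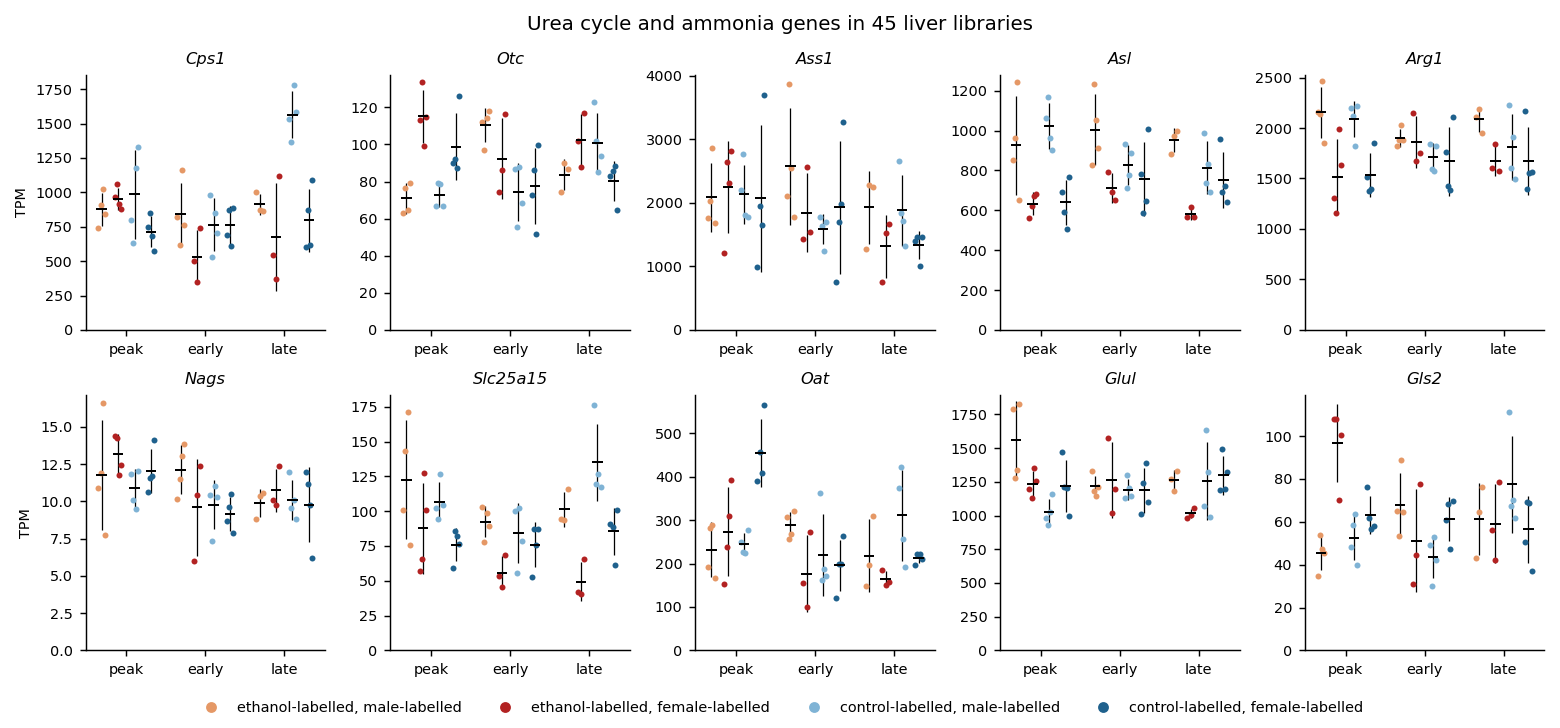
TPM of the 10 members in each of the 45 libraries, by stage (horizontal axis) and by diet and sex label (colour); points are libraries, horizontal bars group means and vertical lines ± SD. At peak the means of Otc and Gls2 are lower in both male-labelled groups than in both female-labelled groups, and late livers labelled control male stand highest in Cps1, at 1363 to 1782 TPM.

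The genes lie apart in the genome (mm10, GENCODE M21). Cps1 is on chromosome 1 (67123026 to 67231259), Glul also on chromosome 1 (153899944 to 153909723) and Ass1 on chromosome 2 (31470207 to 31520672). Asl is on chromosome 5 (130011258 to 130029247), Oat on chromosome 7 (132557478 to 132576398) and Slc25a15 on chromosome 8 (22375551 to 22398597). Arg1 (24915221 to 24927484) and Gls2 (128194457 to 128210004) are on chromosome 10, Nags on chromosome 11 (102145513 to 102149477) and Otc on chromosome X (10252305 to 10321024). All are protein-coding. Nags, Glul, Gls2 and Oat overlap other annotated genes, Nags with the antisense Gm11586, Glul with Teddm2 and Mir8114, Gls2 with Spryd4 and Oat with Fgfr2. Gm11586, Teddm2 and Spryd4 lie on the opposite strand, and Mir8114 and Fgfr2 on the same strand as the member. The sources used here do not say whether reads were counted by strand, so reads from the opposite strand could have entered Nags, Glul and Gls2. Reads from the same-strand overlaps could have entered Glul and Oat under either way of counting.

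Promoter windows from RefSeq (GRCm38.p6), running from 250 bases before to 50 after a transcript start, were matched for 6 of the 10 members. The 4 shown belong to the members that differed between the diet labels at some stage under either scaling described below and that had a window, Glul, Oat, Otc and Slc25a15. Capitals mark CCAAT, the core of the site of the factor NF-Y, in Glul and Oat, and TTNNGNAA, the core of C/EBP sites, in Oat and Otc, on either strand. The Slc25a15 window, the one that holds the GENCODE start, had neither. TATAAA, the TATA box, and TGTTCT, a core of the glucocorticoid receptor site, were searched on both strands too and were in none of the 4 windows. These motifs do not overlap each other where they were found.
Glul, chr1:153899679-153899978, plus strand: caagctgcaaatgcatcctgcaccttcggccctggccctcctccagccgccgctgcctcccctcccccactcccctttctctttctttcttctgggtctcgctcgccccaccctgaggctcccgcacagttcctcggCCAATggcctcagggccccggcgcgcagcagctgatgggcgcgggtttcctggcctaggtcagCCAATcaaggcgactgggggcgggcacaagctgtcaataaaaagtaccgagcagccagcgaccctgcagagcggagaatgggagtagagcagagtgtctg
Oat, chr7:132576349-132576648, minus strand: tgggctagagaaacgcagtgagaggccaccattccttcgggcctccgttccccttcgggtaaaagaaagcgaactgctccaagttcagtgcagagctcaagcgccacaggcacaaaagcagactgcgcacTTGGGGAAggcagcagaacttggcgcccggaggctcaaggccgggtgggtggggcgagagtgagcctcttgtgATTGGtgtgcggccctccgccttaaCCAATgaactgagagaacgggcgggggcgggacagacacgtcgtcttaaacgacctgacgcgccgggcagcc
Otc, chrX:10252055-10252354, plus strand: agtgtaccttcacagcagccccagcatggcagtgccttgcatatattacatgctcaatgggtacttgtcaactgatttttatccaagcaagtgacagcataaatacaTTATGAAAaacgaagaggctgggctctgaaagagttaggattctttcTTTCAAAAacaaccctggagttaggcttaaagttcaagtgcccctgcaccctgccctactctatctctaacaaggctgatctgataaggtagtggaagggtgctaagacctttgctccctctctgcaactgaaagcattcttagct
Slc25a15, chr8:22398572-22398871, minus strand: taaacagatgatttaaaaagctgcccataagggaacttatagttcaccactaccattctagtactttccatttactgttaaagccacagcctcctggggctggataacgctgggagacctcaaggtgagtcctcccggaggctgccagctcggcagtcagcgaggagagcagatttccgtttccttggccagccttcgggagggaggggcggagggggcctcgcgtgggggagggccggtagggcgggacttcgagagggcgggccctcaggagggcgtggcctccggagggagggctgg
Of 32851 mouse promoter windows of the same length, 37.4% hold CCAAT and 40.7% hold TTNNGNAA. TATAAA is in 13.6% of them and TGTTCT in 19.0% of them. The CCAAT matches began 113 and 50 bases before the start in Glul and 47 and 22 bases before it in Oat. TTNNGNAA began 143 and 96 bases before the start in Otc and 120 bases before it in Oat. GC content was 64.3% in the Glul window, 61.7% in Oat, 60.7% in Slc25a15 and 44.3% in Otc, against a median of 52.7% over all windows.

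The study's main comparison is of ethanol-labelled with control-labelled livers at each stage. At peak, Glul was the member that rose in ethanol-labelled livers, by 1.24-fold, and the other 9 did not pass the test. Differences were tested with limma on log2(TPM + 0.5), averaged over the sex labels, with p-values adjusted by Benjamini-Hochberg over 11244 genes and called under 0.05. At peak 27.1% of all genes were called in either direction, against 1 of 10 members. The median difference was 0.10 over the members and 0.05 over all genes, on the log2 scale.

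Glul, glutamine synthetase, stood at 1787, 1279, 1341 and 1828 TPM in livers labelled ethanol male at peak, against 982, 926.8, 1024 and 1158 TPM in livers labelled control male. These ranges did not overlap. In female-labelled livers Glul stood at 1194, 1133, 1353 and 1253 TPM with the ethanol label, against 1469, 1210, 1207 and 999.4 TPM with the control label, and the groups overlapped. Glul differed by 0.31 ± 0.10 (SE, limma, adjusted p = 0.0192) over both sex labels, and 6 of 8 ethanol-labelled libraries lay above their control mean. It was 0.59 ± 0.14 (adjusted p = 0.0024) in male-labelled livers, where 23.4% of all genes were called, and 0.02 ± 0.14 (adjusted p = 0.943) in female-labelled livers, where 6.65% of genes and 0 of 10 members were. The difference between these effects was 0.57 ± 0.20 (limma interaction, adjusted p = 0.265), so the sex labels were not shown to differ. The call over both sex labels ended without peak ethanol male 1 (0.27, adjusted p = 0.0511), ethanol male 4 (0.27, adjusted p = 0.0533) or control female 4 (0.26, adjusted p = 0.0544). The call in male-labelled livers remained without each of the 8 libraries, at 0.51 to 0.68.

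The median of all genes was not the same in the groups being compared. It was higher in ethanol-labelled than in control-labelled livers by 0.15 at peak in female-labelled livers and by 0.13 at early resolution over both sex labels. It was 0.29 lower in male-labelled than in female-labelled livers at peak (log2). Every comparison was therefore repeated after median-of-ratios scaling, which sets the typical gene to the same level in every library. After this scaling the Glul difference at peak was 0.22 over both sex labels (limma, adjusted p = 0.212) and 0.63 in male-labelled livers (adjusted p = 0.0134), and -0.18 (adjusted p = 0.652) in female-labelled livers. With it 35.7% of all genes were called at peak over both sex labels, and 1 of 10 members, Oat. In male-labelled livers 33.3% of genes and 1 member, Glul, were called, and in female-labelled livers 7.91% of genes and 1 member, Oat.

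Oat, ornithine aminotransferase, shares the pericentral zone with Glul. It stood at 152.7, 239.2, 310.7 and 392 TPM in livers labelled ethanol female at peak, against 391.3, 456.7, 407.7 and 564.8 TPM in livers labelled control female. The highest ethanol-labelled library exceeded the lowest control-labelled library by a small margin. In male-labelled livers Oat stood at 191.4, 281.9, 289.8 and 166.4 TPM with the ethanol label, against 249.6, 226.8, 223.8 and 278.1 TPM with the control label, and the groups overlapped. Oat differed by -0.45 ± 0.20 (limma, adjusted p = 0.0891) over both sex labels. It was -0.80 ± 0.29 (adjusted p = 0.0867) in female-labelled and -0.11 ± 0.29 (adjusted p = 0.82) in male-labelled livers. After median-of-ratios scaling Oat was called at -0.54 ± 0.21 (adjusted p = 0.0413) over both sex labels and at -1.01 ± 0.30 (adjusted p = 0.0284) in female-labelled livers. As deposited it was also called without peak ethanol female 4, at -0.56 (adjusted p = 0.0404) over both sex labels and at -1.001 (adjusted p = 0.0369) in female-labelled livers.

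Gls2, the glutaminase that frees ammonia in periportal hepatocytes, showed values in opposite directions in the sex labels at peak. It stood at 108.1, 108, 70.07 and 100.7 TPM in livers labelled ethanol female, against 76.19, 61.93, 56.64 and 58.06 TPM in livers labelled control female. The differences were 0.60 ± 0.25 (limma, adjusted p = 0.142) in female-labelled and -0.21 ± 0.25 (adjusted p = 0.582) in male-labelled livers, with an interaction of -0.81 ± 0.35 (adjusted p = 0.343). None of these passed the test. The enzymes of the cycle itself, Cps1, Otc, Ass1, Asl and Arg1, with Nags and Slc25a15, differed between the diet labels at peak by -0.09 to 0.16 (log2), with adjusted p-values from 0.56 to 0.986.

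At early resolution Otc, which makes citrulline in the mitochondrion, was the member that rose in ethanol-labelled livers, by 1.34-fold. In all, 16.7% of genes were called at this stage, against 1 of 10 members. Otc stood at 112.3, 97.15, 114.2 and 118.1 TPM in livers labelled ethanol male, against 86.68, 55.32, 87.79 and 68.25 TPM in livers labelled control male. The male-labelled groups did not overlap. In female-labelled livers it stood at 74.36, 86.11 and 116.6 TPM with the ethanol label, against 72.76, 86.06, 51.56 and 99.89 TPM with the control label, and the groups overlapped. Otc differed by 0.43 ± 0.12 (limma, adjusted p = 0.0151), and 6 of 7 ethanol-labelled libraries lay above their control mean. It was 0.59 ± 0.17 (adjusted p = 0.0227) in male-labelled livers, where 8.39% of genes and 1 of 10 members were called, and 0.27 ± 0.18 (adjusted p = 0.502) in female-labelled livers, where 3.92% of genes and 0 members were.

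The Otc call was not kept in every setting. After median-of-ratios scaling the difference was 0.24 (limma, adjusted p = 0.0729), with 0 of 10 members called against 16.7% of genes, and 0.36 in male-labelled livers (adjusted p = 0.078), with 0 members called against 8.4% of genes. In a fit of the early libraries alone it was 0.43 (adjusted p = 0.0797). It also ended without early control female 3 (0.34, adjusted p = 0.0504) or early ethanol female 3 (0.34, adjusted p = 0.08). The male-labelled call ended without control male 2 (0.45, adjusted p = 0.162), control male 4 (0.55, adjusted p = 0.0786), ethanol male 1 (0.58, adjusted p = 0.0632), ethanol male 3 (0.57, adjusted p = 0.055) or ethanol male 4 (0.55, adjusted p = 0.0628). The other 9 members differed at early resolution by -0.22 to 0.36 (log2), with adjusted p-values from 0.345 to 0.782.

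At late resolution Slc25a15, the mitochondrial ornithine carrier, fell to 0.66-fold in ethanol-labelled livers, and 12.8% of all genes were called against 1 of 10 members. Slc25a15 stood at 94.28, 93.56 and 115.8 TPM in livers labelled ethanol male, against 176.4, 119.3, 126.9 and 117.3 TPM in livers labelled control male. In female-labelled livers it stood at 41.89, 40.43 and 65.84 TPM with the ethanol label, against 90.99, 88.98, 61.22 and 100.5 TPM with the control label. The male-labelled groups did not overlap, and among female-labelled livers control female 3 lay below the highest ethanol-labelled library. Slc25a15 differed by -0.60 ± 0.18 (limma, adjusted p = 0.0247), with -0.80 ± 0.26 (adjusted p = 0.0868) in female-labelled and -0.40 ± 0.26 (adjusted p = 0.377) in male-labelled livers. Within a sex label 0 of 10 members were called as deposited, against 2.46% of genes in female-labelled and 6.44% in male-labelled livers. After median-of-ratios scaling Slc25a15 differed by -0.68 ± 0.18 (adjusted p = 0.00821) over both sex labels. In female-labelled livers it was then called, at -0.96 (adjusted p = 0.0273). Quantile normalization (-0.93, adjusted p = 0.0328) and array weights (-0.97, adjusted p = 0.0389), which stopped before convergence, called it there too. The shares of all genes called in female-labelled livers in these settings are not given here, so these calls cannot be set against them. As deposited, the call over both sex labels ended without late ethanol female 1 (-0.55, adjusted p = 0.0711), ethanol female 2 (-0.54, adjusted p = 0.0734), ethanol male 1 (-0.58, adjusted p = 0.0597), ethanol male 2 (-0.57, adjusted p = 0.0561) or control female 4 (-0.56, adjusted p = 0.0582). Without late control female 1, whose sex transcripts differed from the other control-labelled libraries, this difference was -0.58 (adjusted p = 0.0288).

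Cps1, the entry enzyme of the cycle, stood at 1001, 873 and 867.1 TPM in livers labelled ethanol male at late resolution, against 1531, 1363, 1782 and 1581 TPM in livers labelled control male. These groups stood well apart. In female-labelled livers Cps1 stood at 545.5, 368.5 and 1116 TPM with the ethanol label, against 600.4, 873.6, 620.3 and 1090 TPM with the control label, and the groups overlapped widely. Cps1 differed by -0.56 ± 0.20 over both sex labels (limma, adjusted p = 0.0549), -0.77 ± 0.28 (adjusted p = 0.0901) in male-labelled and -0.34 ± 0.28 (adjusted p = 0.505) in female-labelled livers. It was called after median-of-ratios scaling, at -0.64 ± 0.19 (adjusted p = 0.016), when 2 of 10 members and 21.1% of genes were called. As deposited it was called without late ethanol female 3 (-0.78, adjusted p = 0.00506), control female 3 (-0.61, adjusted p = 0.0407) or control female 1 (-0.62, adjusted p = 0.0288). Of the other members, Oat differed by -0.45 ± 0.22 (adjusted p = 0.171) and Glul by -0.16 ± 0.11 (adjusted p = 0.34). The remaining 6 lay between -0.14 and 0.12.

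**Figure D2:**
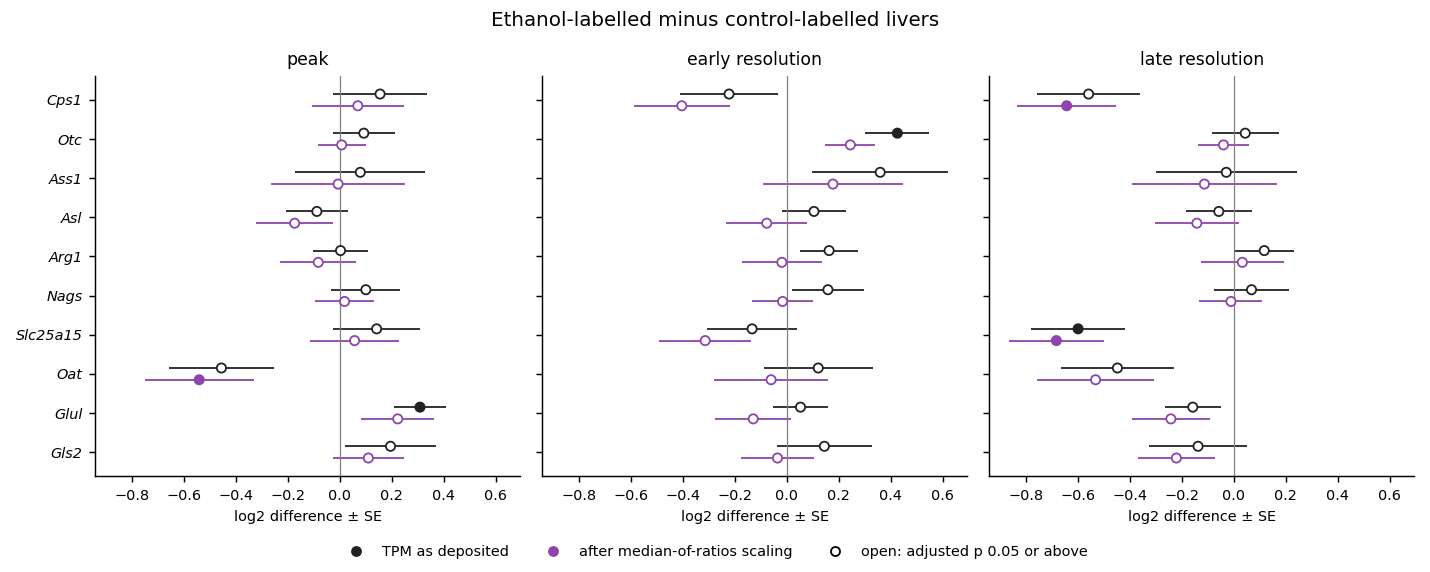
Ethanol-labelled minus control-labelled log2 difference of each member (horizontal axis, ± SE) at peak, early and late resolution, in TPM as deposited (black) and after median-of-ratios scaling (purple); filled points have an adjusted p under 0.05. Slc25a15 at late resolution is filled in both colours, at -0.60 and -0.68; Glul at peak and Otc at early resolution are filled in black alone, and Oat at peak and Cps1 at late resolution in purple alone.

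Markers of other liver cell types also differed between the diet labels, and their part in the results above was not tested. The 5 sinusoidal endothelium markers summed to 63.5 to 237 TPM in ethanol-labelled livers at peak, against 44.3 to 173 TPM in control-labelled livers, and 5 of 5 rose. The 5 Kupffer cell markers, from resident macrophages, summed to 283 to 478 TPM in ethanol-labelled livers at early resolution, against 106 to 351 TPM in control-labelled livers, and 4 of 5 rose. At late resolution they summed to 312 to 503 TPM with the ethanol label, against 130 to 534 TPM with the control label, and 3 of 5 rose. The 5 stellate cell markers, from the vitamin A storing cells, summed to 66.7 to 131 TPM in ethanol-labelled livers at peak, against 30.1 to 98.3 TPM in control-labelled livers, and 3 of 5 rose. At early resolution they summed to 99.7 to 139 TPM with the ethanol label, against 48.5 to 96.3 TPM with the control label, with no overlap, and 2 of 5 rose. At late resolution they stood at 79.7 to 124 TPM with the ethanol label, against 45.6 to 103 TPM with the control label, and 0 of 5 were called. Dcn, at 27.07 to 125.3 TPM over all libraries, made up most of the stellate cell sums, and no other stellate marker exceeded 6.385 TPM. These sums thus describe mainly Dcn. The 5 hepatocyte markers summed to 186400 to 216700 TPM in ethanol-labelled livers at late resolution, against 113100 to 191100 TPM in control-labelled livers, where 2 of 5 rose and 1 fell. At early resolution the hepatocyte sums were 146600 to 203000 TPM with the ethanol label, against 89250 to 178200 TPM with the control label, where 1 rose and 1 fell. At peak they were 145300 to 194600 TPM, against 133000 to 173400 TPM, where 2 fell. Of 5 leukocyte markers 3 rose at early and 3 at late resolution, and of 5 cholangiocyte markers 2 rose at peak. As deposited, 27.1% of all genes were called in either direction at peak, 16.7% at early and 12.8% at late resolution. Marker values between the diet labels after median-of-ratios scaling are not given here. None of the markers was at 0 in any library. In whole liver, fewer cells of a type and less RNA per cell cannot be told apart.

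The comparison of male-labelled with female-labelled livers holds the diet alike in both arms by the labels, and at peak the sex transcripts were alike in both arms too. At peak Asl, Arg1 and Slc25a15 rose in male-labelled livers by 1.52-fold, 1.40-fold and 1.41-fold, and Otc, Gls2 and Oat fell to 0.68-fold, 0.63-fold and 0.69-fold. That is 6 of 10 members, where 51% of all genes were called in either direction, 4.26% higher and 46.7% lower. After median-of-ratios scaling 5 of 10 members were called, all higher, where 31.6% of genes were called, 16.2% higher and 15.4% lower. The median difference over the members was 0.05 as deposited and 0.40 after scaling, against -0.29 and 0.01 over all genes (log2).

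Asl, the lyase that releases arginine, stood at 850, 961.6, 1244 and 650.3 TPM in livers labelled ethanol male at peak, against 559.6, 621.9, 672.2 and 682.2 TPM in livers labelled ethanol female. In control-labelled livers it stood at 1063, 1167, 961.3 and 902.7 TPM in male-labelled livers, against 692.2, 592.1, 506.8 and 767.1 TPM in female-labelled livers. The control-labelled groups did not overlap, and ethanol male 4 alone lay within the female-labelled range. The log2 difference was 0.60 ± 0.12 (limma, adjusted p = 0.000201) and 8 of 8 male-labelled libraries lay above the female-labelled mean of their diet label, which is how libraries are counted below. It was 0.51 ± 0.17 (adjusted p = 0.0126) with the ethanol label and 0.69 ± 0.17 (adjusted p = 0.0169) with the control label. After median-of-ratios scaling it was 0.95 ± 0.15 (adjusted p = 2e-05).

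Arg1, the arginase that yields urea, stood at 2159, 2136, 2464 and 1856 TPM in livers labelled ethanol male, against 1306, 1157, 1986 and 1629 TPM in livers labelled ethanol female. In control-labelled livers it stood at 2200, 2115, 1826 and 2217 TPM in male-labelled livers, against 1514, 1375, 1395 and 1851 TPM in female-labelled livers. Each pair of groups overlapped by its lowest male-labelled and highest female-labelled library. The log2 difference was 0.49 ± 0.11 (limma, adjusted p = 0.000537), higher in 8 of 8 male-labelled libraries, and 0.84 ± 0.15 (adjusted p = 7.97e-05) after median-of-ratios scaling. It was 0.53 ± 0.15 (adjusted p = 0.00549) with the ethanol label and 0.45 ± 0.15 (adjusted p = 0.0941) with the control label.

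Slc25a15 stood at 100.6, 142.9, 171.3 and 75.59 TPM in livers labelled ethanol male, against 57.12, 65.46, 127.4 and 100.7 TPM in livers labelled ethanol female, and these groups overlapped. In control-labelled livers it stood at 102.2, 94.35, 126.6 and 104.5 TPM in male-labelled livers, against 58.89, 86.08, 82.1 and 76.31 TPM in female-labelled livers, with no overlap. The log2 difference was 0.49 ± 0.17 (limma, adjusted p = 0.0154), higher in 7 of 8 male-labelled libraries, and 0.84 ± 0.17 (adjusted p = 0.000403) after median-of-ratios scaling. It was 0.49 ± 0.24 (adjusted p = 0.0847) with the ethanol label and 0.50 ± 0.24 (adjusted p = 0.238) with the control label. Asl, Arg1 and Slc25a15 were called over both diet labels in both scalings and without each of the 16 peak libraries in turn.

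Otc moved the other way in TPM. It stood at 63.14, 76.46, 64.57 and 79.3 TPM in livers labelled ethanol male and at 66.93, 79.06, 78.48 and 66.96 TPM in livers labelled control male. In female-labelled livers it stood at 113.1, 133.6, 99.2 and 114.8 TPM with the ethanol label and at 89.89, 92.31, 87.14 and 126 TPM with the control label. All 8 male-labelled libraries lay below all 8 female-labelled libraries. The log2 difference was -0.56 ± 0.12 (limma, adjusted p = 0.000394). It was -0.70 ± 0.17 (adjusted p = 0.00151) with the ethanol label and -0.43 ± 0.17 (adjusted p = 0.155) with the control label. After median-of-ratios scaling, relative to the typical gene, it was -0.21 (adjusted p = 0.0758).

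Gls2 stood at 34.81, 54, 47.12 and 45.56 TPM in livers labelled ethanol male, against 108.1, 108, 70.07 and 100.7 TPM in livers labelled ethanol female, far apart. With the control label it stood at 48.47, 58.46, 63.59 and 39.98 TPM in male-labelled livers, against 76.19, 61.93, 56.64 and 58.06 TPM in female-labelled livers, and these groups overlapped. The log2 difference was -0.68 ± 0.17 over both diet labels (limma, adjusted p = 0.00221) and -0.33 (adjusted p = 0.0634) after median-of-ratios scaling. With the ethanol label alone Gls2 fell under both scalings, with a log2 difference of -1.08 ± 0.25 (adjusted p = 0.00101) as deposited and of -0.61 ± 0.19 (adjusted p = 0.0162) after scaling. With the control label it differed by -0.27 ± 0.25 (adjusted p = 0.535).

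Oat averaged 232 ± 62.7 TPM in livers labelled ethanol male and 274 ± 102 TPM in livers labelled ethanol female (SD, n = 4 each). With the control label it averaged 244 ± 25.1 TPM in male-labelled livers and 455 ± 78.2 TPM in female-labelled livers (SD, n = 4 each). Its log2 difference was -0.54 ± 0.20 (limma, adjusted p = 0.0264) over both diet labels, -0.19 ± 0.29 (adjusted p = 0.582) with the ethanol label and -0.89 ± 0.29 (adjusted p = 0.0828) with the control label. The call ended after median-of-ratios scaling (-0.19, adjusted p = 0.519) and with quantile normalization (-0.36, adjusted p = 0.166). It also ended without peak ethanol male 1 (-0.50, adjusted p = 0.0533), ethanol male 4 (-0.47, adjusted p = 0.0607), ethanol female 4 (-0.44, adjusted p = 0.0725) or control female 4 (-0.48, adjusted p = 0.0546).

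Glul and Cps1 were called at peak after scaling alone. Glul differed between the sex labels by 0.04 ± 0.10 (limma, adjusted p = 0.764) as deposited and by 0.39 ± 0.14 (adjusted p = 0.0309) after median-of-ratios scaling. With the ethanol label the Glul difference was 0.32 ± 0.14 (adjusted p = 0.0562) as deposited and 0.80 ± 0.20 (adjusted p = 0.003) after scaling. Cps1 differed by 0.14 ± 0.18 (adjusted p = 0.509) and, after scaling, by 0.50 ± 0.18 (adjusted p = 0.0302). Ass1 at 0.06 ± 0.25 (adjusted p = 0.855) and Nags at -0.17 ± 0.13 (adjusted p = 0.279) were called in neither scaling. With the ethanol label 4 of 10 members were called as deposited, where 49.4% of genes were, and with the control label 1 of 10, Asl, where 2.9% of genes were. After scaling 5 of 10 and 1 of 10 were called, where 31.4% and 3.08% of genes were.

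Some calls within a diet label changed when 1 library was left out. Asl with the ethanol label was not called without peak ethanol male 3 (0.36, limma, adjusted p = 0.0879). With the control label Asl was not called without control male 1 (0.67, adjusted p = 0.065), control male 2 (0.62, adjusted p = 0.0598), control female 2 (0.66, adjusted p = 0.0658) or control female 3 (0.58, adjusted p = 0.0947). Slc25a15 with the ethanol label was called without ethanol male 4 (0.69, adjusted p = 0.0206) or ethanol female 3 (0.69, adjusted p = 0.0172). Glul with the ethanol label was called without ethanol male 2 (0.41, adjusted p = 0.0257), ethanol male 3 (0.39, adjusted p = 0.0407) or ethanol female 3 (0.37, adjusted p = 0.0415). Otc, Gls2 and Arg1 with the ethanol label were called without each of the 8 libraries. Sinusoidal endothelium markers moved with the sex label at peak. They summed to 44.3 to 148 TPM in male-labelled livers, against 82.7 to 237 TPM in female-labelled livers. Of them 5 of 5 fell as deposited and 2 of 5 after scaling, where 46.7% and 15.4% of all genes fell. Median sums were also lower in male-labelled livers for stellate cell (61.37 against 100.3 TPM) and Kupffer cell markers (198.8 against 282.5 TPM). They were higher for leukocyte (41.02 against 21.62 TPM) and cholangiocyte markers (50.34 against 40.03 TPM). Over all libraries Spp1 stood at 20.92 to 135.7 TPM and no other cholangiocyte marker exceeded 3.534 TPM, so these sums describe mainly Spp1. Of the leukocyte markers S100a8 reached 63.07 TPM and Cd79a 17.14 TPM, and no other exceeded 4.752 TPM. The stellate cell sums again describe mainly Dcn. How many markers of these 4 cell types were called is not given here. The part of these markers in the member results was not tested.

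**Figure D3:**
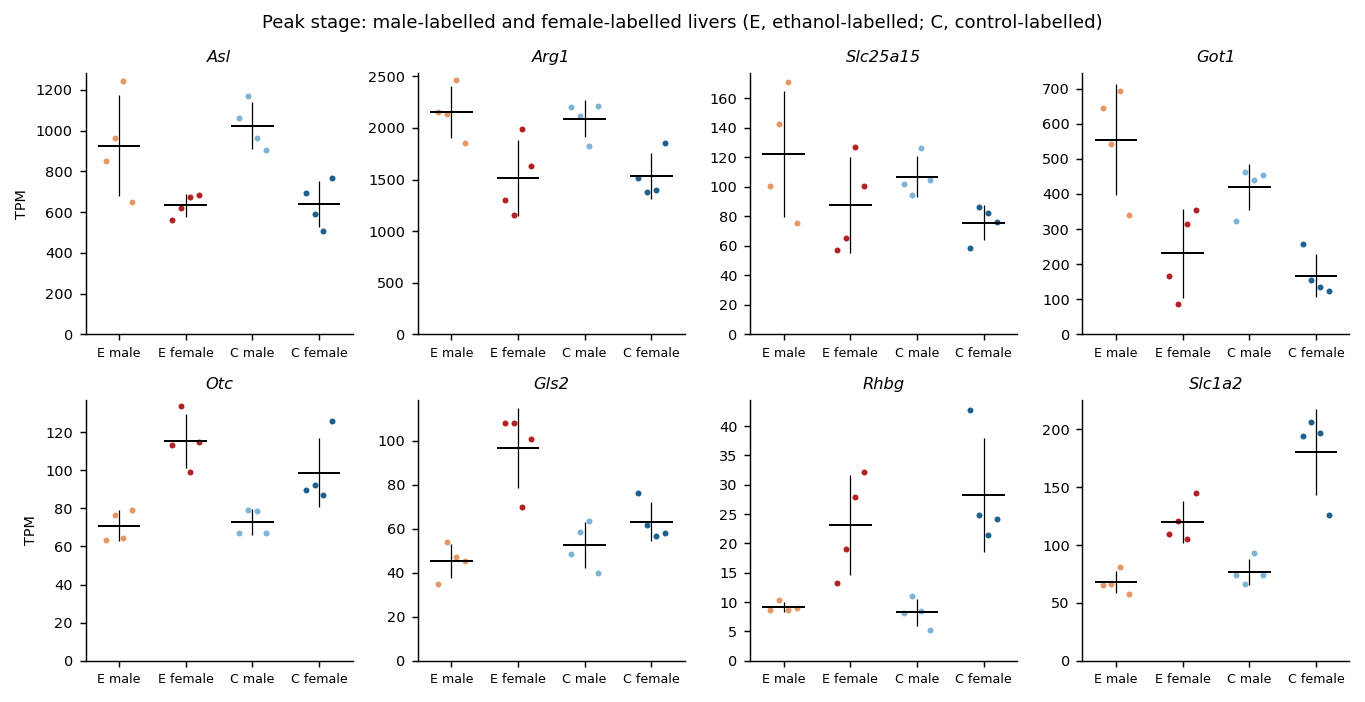
TPM at peak of 5 members and of Got1, Rhbg and Slc1a2 in male-labelled and female-labelled livers (horizontal axis; E, ethanol label; C, control label; n = 4 each), with group means and ± SD. Asl, Arg1, Slc25a15 and Got1 have higher means in male-labelled livers within each diet label; Otc, Gls2, Rhbg and Slc1a2 have lower means there, and Otc ranges from 63.14 to 79.3 TPM in male-labelled livers and from 87.14 to 133.6 TPM in female-labelled livers.

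At early resolution none of the 10 members was called between the sex labels by limma, where 0.596% of genes were, in TPM as deposited. Asl at 0.32 ± 0.12 (adjusted p = 0.245), Slc25a15 at 0.43 ± 0.17 (adjusted p = 0.269) and Oat at 0.48 ± 0.21 (adjusted p = 0.321) had an unadjusted p under 0.05, 3 of 10 in all. The share of all genes at that looser threshold is not given here, and the 0.596% does not stand for it. After median-of-ratios scaling 0 of 10 members and 1.83% of genes were called. Array weights, which stopped before convergence, called 4 of 10 members. The share of all genes called with them is not given here, so this count cannot be set against it. Within the ethanol label and within the control label 0 of 10 members were called, where 0.178% and 0.151% of genes were.

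At late resolution Cps1 and Slc25a15 rose in male-labelled livers, by 1.74-fold and 1.81-fold, where 3.25% of genes were called in either direction. After median-of-ratios scaling the same 2 of 10 members were called, where 9.55% of genes were. The TPM values are those given above for late resolution. In control-labelled livers every male-labelled library exceeded every female-labelled library in both genes. In ethanol-labelled livers this held for Slc25a15, while in Cps1 the 3 male-labelled libraries lay between the second and the highest female-labelled library.

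Cps1 differed by 0.80 ± 0.20 (limma, adjusted p = 0.0232), higher in 7 of 7 male-labelled libraries, and by 0.74 ± 0.19 (adjusted p = 0.0172) after median-of-ratios scaling. It was 1.01 ± 0.26 (adjusted p = 0.0421) with the control label, where 0.934% of genes and 1 of 10 members were called, and 0.58 ± 0.30 (adjusted p = 0.435) with the ethanol label, where 0.507% of genes and 0 members were. After scaling the control-label difference was 0.87 (adjusted p = 0.0413), where 4.33% of genes were called. The call over both diet labels ended in a fit of the late libraries alone (0.80, adjusted p = 0.0912). It ended without late ethanol male 1 (0.76, adjusted p = 0.0689), control male 3 (0.77, adjusted p = 0.0504), ethanol female 1 (0.76, adjusted p = 0.108), ethanol female 2 (0.62, adjusted p = 0.103) or control female 3 (0.75, adjusted p = 0.0644). Without control female 1 it was 0.74 (adjusted p = 0.0378). The control-label call ended without any 1 of control male 1, 2, 3 and 4 and control female 1 and 3, with values of 0.89 to 1.08 and adjusted p-values of 0.0752 to 0.144.

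Slc25a15 differed by 0.86 ± 0.18 (limma, adjusted p = 0.0109), higher in 7 of 7 male-labelled libraries, and by 0.80 ± 0.18 (adjusted p = 0.0101) after median-of-ratios scaling. It was 1.06 ± 0.27 (adjusted p = 0.0653) with the ethanol label and 0.66 ± 0.24 (adjusted p = 0.108) with the control label. The call ended without late ethanol female 1 (0.81, adjusted p = 0.0621), and without control female 1 the difference was 0.88 (adjusted p = 0.0102). With the ethanol label it was called without ethanol female 3 (1.28, adjusted p = 0.0363). Asl, at 0.41 ± 0.13 (adjusted p = 0.0607), was called without control female 1 (0.47, adjusted p = 0.0361) or ethanol female 3 (0.40, adjusted p = 0.0422). With the ethanol label Asl stood at 884.3, 974.7 and 998 TPM in male-labelled livers, against 564.3, 616 and 565.1 TPM in female-labelled livers, far apart (0.71 ± 0.19, adjusted p = 0.0857). With the control label the Asl groups overlapped (0.11 ± 0.17, adjusted p = 0.725).

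**Figure D4:**
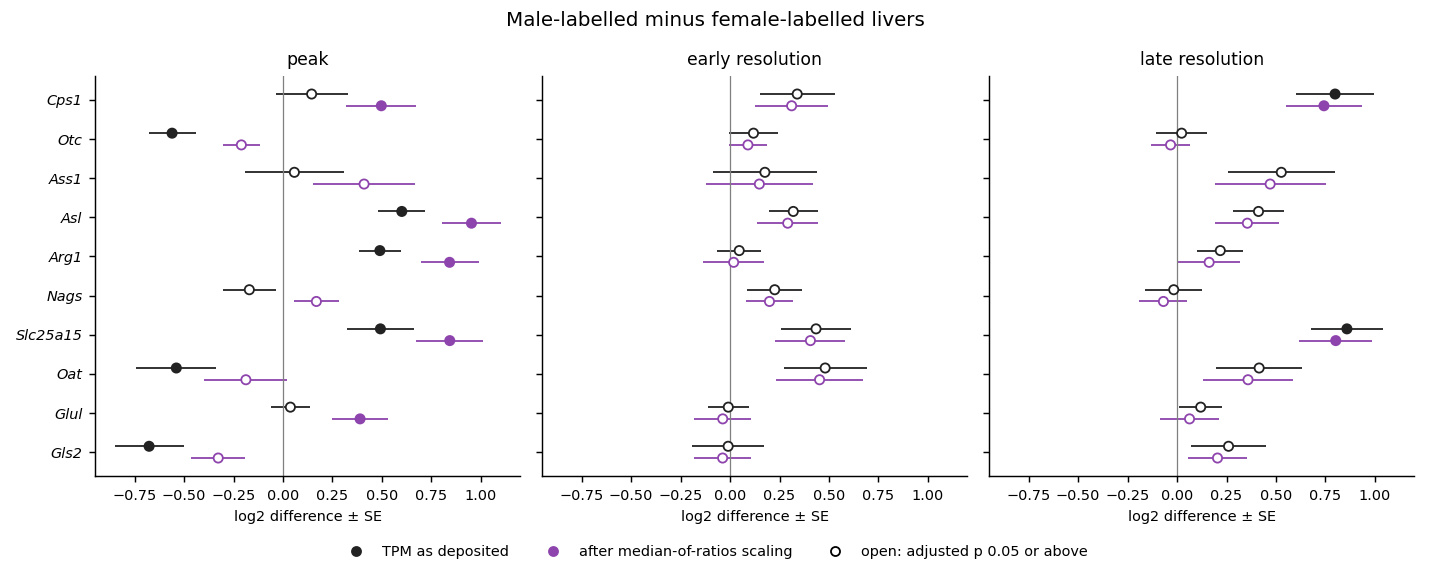
Male-labelled minus female-labelled log2 difference of each member (horizontal axis, ± SE) at peak, early and late resolution, in TPM as deposited (black) and after median-of-ratios scaling (purple); filled points have an adjusted p under 0.05. At peak the purple points lie to the right of the black ones, and Asl, Arg1 and Slc25a15 are filled in both; at late resolution Cps1 and Slc25a15 are.

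No member's diet effect was shown to differ between the sex labels. The interaction of the labels was called by limma for 0 of 10 members at peak, at early and at late resolution, against 0.16%, 0.00889% and 0.0445% of genes, and for none after median-of-ratios scaling. The shares of all genes at an unadjusted p under 0.05 are not given here, so member counts at that looser threshold cannot be set against them. At it there were 2 members at peak, Glul and Gls2, given above. At early resolution there was 1, Gls2 (0.99 ± 0.36, adjusted p = 1.0). At late resolution there were 2, Asl (0.60 ± 0.26, adjusted p = 0.536) and Otc (-0.61 ± 0.26, adjusted p = 0.526). With array weights 2 members were called at peak, Glul at 0.60 (adjusted p = 0.0313) and Gls2 at -1.01 (adjusted p = 0.0129). The share of all genes called with array weights is not given here.

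The resolution question is whether the diet difference changed between stages. By limma no member's did in TPM as deposited, for early minus peak, late minus peak or late minus early. Of all genes 0%, 3.98% and 0% were called. At the looser threshold of an unadjusted p under 0.05 there were 0, 3 and 1 members. The shares of all genes at that threshold are not given here, so these member counts cannot be set against the shares called. For late minus peak the 3 were Glul at -0.47 ± 0.15 (adjusted p = 0.0595), Slc25a15 at -0.74 ± 0.25 (adjusted p = 0.0692) and Cps1 at -0.71 ± 0.27 (adjusted p = 0.103). After median-of-ratios scaling 1 of 10 members, Slc25a15 at -0.74 (adjusted p = 0.0477), was called, where 12% of genes were. Leaving out 1 library at a time, Glul was called without 9 of 30 libraries (-0.52 to -0.40 over all 30), Slc25a15 without 4 (-0.85 to -0.64) and Cps1 without 1, late ethanol female 3 (-0.93, adjusted p = 0.0201). Without late control female 1 the Glul change was -0.49 (adjusted p = 0.0488). Quantile normalization called 2 of 10 members, Glul at -0.49 (adjusted p = 0.0417) and Slc25a15 at -0.79 (adjusted p = 0.04). Array weights called 3, Glul at -0.53 (adjusted p = 0.0125), Slc25a15 at -0.70 (adjusted p = 0.0163) and Cps1 at -0.95 (adjusted p = 0.00443). The share of all genes called is not given here for quantile normalization or array weights, so these counts cannot be set against it. Whether the late difference of Glul, Slc25a15 and Cps1 departs from the peak one thus depended on the setting.

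Within the ethanol label, Cps1 and Slc25a15 were lower at early resolution than at peak, and Slc25a15 was lower at late resolution than at peak. Cps1 averaged 841 ± 230 TPM in early male-labelled livers (SD, n = 4) and 531 ± 198 TPM in early female-labelled livers (n = 3), against 877 ± 118 and 953 ± 80.7 TPM at peak (n = 4 each). Its log2 change was -0.50 ± 0.19 (limma, adjusted p = 0.0475). Slc25a15 changed by -0.47 ± 0.17 (adjusted p = 0.0429) for early minus peak and by -0.50 ± 0.18 (adjusted p = 0.0439) for late minus peak. These are 2 of 10 and 1 of 10 members, where 26.5% and 22% of genes were called, and 0 of 10 members were called for late minus early, where 0% of genes were. With no filter on low values all 3 calls ended, with adjusted p-values of 0.0704 for Cps1, 0.0624 for Slc25a15 at early and 0.0658 for Slc25a15 at late resolution. The Cps1 call remained without early ethanol female 3 or early ethanol male 3 and ended without each of the other 13 libraries (-0.64 to -0.37 over all 15). The Slc25a15 calls ended without 8 of 15 and 8 of 14 libraries (-0.57 to -0.37 and -0.61 to -0.40). After median-of-ratios scaling, where 26.6% and 24.8% of genes were called, 4 members were called lower for early minus peak, Cps1 (-0.70), Nags (-0.40), Gls2 (-0.41) and Slc25a15 (-0.67). For late minus peak there were 3, Nags (-0.41), Glul (-0.46) and Slc25a15 (-0.67).

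Within the control label none of the 10 members was called between stages by limma, where 0.729%, 0.676% and 0% of genes were for early minus peak, late minus peak and late minus early. At an unadjusted p under 0.05 there were 1, 1 and 3 members, and the shares of all genes at that looser threshold are not given here. Oat had the smallest p for early minus peak, at -0.74 ± 0.20 (adjusted p = 0.0729). After median-of-ratios scaling, where 2.33% of genes were called, it was called at -0.84 (adjusted p = 0.0239), and as deposited it was called without early control male 1 (-0.87, adjusted p = 0.0179). Cps1 differed by 0.55 ± 0.18 (adjusted p = 0.489) for late minus early.

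The sex-label difference was also compared between stages, a comparison added after the data were seen. By limma 4 of 10 members were called for early minus peak, where 31.9% of genes were, and 3 of 10 for late minus peak, where 36.5% were. These shares lie near those of all genes. The median change was 0.16 over the members for early minus peak and 0.42 for late minus peak (log2), against 0.32 and 0.34 over all genes. Otc changed by 0.68 ± 0.17 (adjusted p = 0.00472) and 0.58 ± 0.17 (adjusted p = 0.0109), Gls2 by 0.67 ± 0.25 (adjusted p = 0.0412) and 0.94 ± 0.26 (adjusted p = 0.00654), and Oat by 1.02 ± 0.29 (adjusted p = 0.0102) and 0.95 ± 0.30 (adjusted p = 0.0138). These 3 fell in male-labelled livers at peak and were not called between the sex labels at the later stages. After median-of-ratios scaling, where 16.5% and 20.2% of genes were called, none of these 6 calls remained, with changes of 0.18 to 0.64, and the median change over the members was -0.22 for early minus peak and 0.01 for late minus peak. For late minus early 0 of 10 members were called, where 0% of genes were. Arg1 changed for early minus peak by -0.44 ± 0.15 (adjusted p = 0.0289) as deposited and by -0.82 (adjusted p = 0.00821) after scaling. After scaling Asl was called as well, at -0.66 (adjusted p = 0.0328) for early minus peak and -0.60 (adjusted p = 0.0497) for late minus peak, as was Arg1 for late minus peak, at -0.68 (adjusted p = 0.0246). As deposited, leaving out 1 library ended the Arg1 call in 4 of 31 cases (-0.51 to -0.38) and the Gls2 call for early minus peak in 17 of 31 (0.51 to 0.84). All of these comparisons share the peak libraries.

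Other genes that supply nitrogen to the cycle were described through lists chosen with earlier results of these data known. Among 17 tested genes of ammonia supply and nitrogen transfer, 3 rose and 3 fell in male-labelled livers at peak as deposited, and 7 rose and 2 fell after median-of-ratios scaling. Got1, the cytosolic aminotransferase that makes aspartate, rose on the log2 scale by 1.39 ± 0.27 (limma, adjusted p = 0.000173), and Gpt2, a mitochondrial alanine aminotransferase, by 0.43 ± 0.15 (adjusted p = 0.0178). Rhbg, an ammonium transporter of pericentral hepatocytes, fell (log2 difference -1.46 ± 0.22, adjusted p = 8.23e-06), as did the glutamate transporter Slc1a2 (-1.01 ± 0.14, adjusted p = 2.44e-06). After scaling these were 1.75 for Got1, 0.78 for Gpt2, -1.13 for Rhbg and -0.66 for Slc1a2, all still called. The list's median difference was -0.13 as deposited and 0.22 after scaling, against -0.29 and 0.01 over all genes. Of all genes 4.26% rose and 46.7% fell in this comparison as deposited, and 16.2% rose and 15.4% fell after scaling.

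Of 13 tested genes of arginine, ornithine and proline metabolism, 4 rose and 1 fell in male-labelled livers at peak, and 8 rose and none fell after scaling. Srm, spermidine synthase, rose by 0.58 ± 0.11 (limma, adjusted p = 0.000105) and Arg2, the mitochondrial arginase, by 0.73 ± 0.23 (adjusted p = 0.0104). Of 20 genes of amino acid breakdown 2 rose and 9 fell, and after scaling 5 rose and 3 fell. The histidine pathway genes Hal (-1.002 ± 0.17, limma, adjusted p = 5.21e-05) and Ftcd (-0.59 ± 0.12, adjusted p = 0.000348) fell, and remained called after scaling at -0.65 and -0.23. Of 12 regulators of urea cycle genes 0 rose and 5 fell, and after scaling 2 rose and 1 fell. Falls in these lists as deposited stand beside the 46.7% of all genes that fell, and after scaling beside 15.4%, with 16.2% rising. Cebpa, a hepatocyte transcription factor, fell, with a log2 difference of -0.84 ± 0.23 (adjusted p = 0.0034) as deposited and of -0.51 (adjusted p = 0.0249) after scaling.

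The zones that hold these genes were compared through genes other than the members. Of 14 pericentral genes 8 fell in male-labelled livers at peak as deposited and 8 fell and 1 rose after scaling, with a median difference of -0.72 and -0.51, where 46.7% of all genes fell as deposited and 15.4% after scaling. Cyp1a2, a pericentral cytochrome P450, fell, with a log2 difference of -1.27 ± 0.17 (limma, adjusted p = 1.19e-06) and of -0.92 (adjusted p = 0.000229) after scaling. Of 13 periportal genes 9 fell and 1 rose as deposited and 3 fell and 1 rose after scaling, with a median of -0.59 and -0.26, beside the same shares and a median of -0.29 and 0.01 over all genes. Cyp2f2, a periportal cytochrome P450, fell, with a log2 difference of -1.04 ± 0.15 (adjusted p = 4.87e-06) and of -0.69 (adjusted p = 0.00027) after scaling. Slc1a2 and Rhbg stand in the pericentral list too, and Hal, Uroc1, Sds and Gldc in both the periportal and the amino acid breakdown list.

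The same lists were set between the diet labels, where 27.1% of all genes were called in either direction at peak, 16.7% at early and 12.8% at late resolution, and 35.7%, 16.7% and 21.1% after scaling. At peak 1 of 17 genes of ammonia supply rose and 1 fell, and at early and late resolution none was called by limma, or 2 lower at late resolution after scaling. Of 13 genes of arginine, ornithine and proline metabolism 3 rose at peak, 4 at early and 2 at late resolution. They included the polyamine acetyltransferase Sat1 at peak (0.81 ± 0.13, limma, adjusted p = 9.9e-06) and the creatine synthesis gene Gamt at early (0.84 ± 0.23, adjusted p = 0.00938) and late resolution (0.81 ± 0.24, adjusted p = 0.0209). Of 20 genes of amino acid breakdown, 2 rose and 1 fell at peak and at early resolution, and 3 fell at late resolution. Asns, asparagine synthetase, is counted in this list, though it makes and does not break down an amino acid. It was the 1 gene that fell at peak and at early resolution, and it fell at late resolution too. Its log2 differences were -3.12 ± 0.63 (adjusted p = 0.000308), -3.32 ± 0.66 (adjusted p = 0.000441) and -2.23 ± 0.68 (adjusted p = 0.0259). Of 12 regulators 1 rose and 3 fell at peak, among them Hnf4a, a master regulator of hepatocyte genes, at 0.59 ± 0.13 (adjusted p = 0.000586), and the bile acid receptor Nr1h4 at -0.42 ± 0.09 (adjusted p = 0.000778). After median-of-ratios scaling 1 regulator rose and 7 fell at peak, 2 ammonia supply genes rose and 3 fell, 3 genes of arginine, ornithine and proline metabolism rose and 1 fell, and 2 genes of amino acid breakdown fell. Of the 14 pericentral genes 3 fell in ethanol-labelled livers at peak, and 3 rose at early and 3 at late resolution. Of the 13 periportal genes 2 rose and 2 fell at peak, 2 rose and 1 fell at early resolution, and 1 rose and 1 fell at late resolution.

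The genes whose pattern over the 12 group means was most like a member's were taken from 5621 genes above the median level, by Pearson's r on log2(TPM + 0.5). For Slc25a15 these were Nucks1 (r = 0.950), Atl2 (0.929) and Gmps (0.919), for Otc Ndrg2 (0.938), Cept1 (0.934) and Snx3 (0.928), and for Gls2 Fam210a (0.924), Bap1 (0.924) and Retreg2 (0.920). For Cps1 they were Man2a1 (0.910), Eprs (0.909) and Uhmk1 (0.908), and for Oat Gsta3 (0.885), Slc1a2 (0.845) and Ugdh (0.841). For Glul they were Lrrc8a (0.874), Srp19 (0.872) and Igfbp1 (0.869). For Asl they were Klhl25 (0.866), Nnmt (0.863) and Mat1a (0.831), and for Arg1, Nags and Ass1 the highest were Nrg4 (0.845), Gm4737 (0.864) and Glt1d1 (0.794). No member was among the 3 genes nearest to another member. These are descriptions over group means from the same libraries.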

How the data were processed

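RNA from whole liver lysate of wild-type mice was extracted with the Illustra RNAspin kit and made into libraries with the TruSeq Stranded mRNA kit, per the labels' protocols. The authors deposited 1 table of 24972 genes in 45 libraries. The table is named as normalized counts, but every library has the same total, as in TPM, so the deposited values were read as TPM. The build was mm10, per the submitters' processing notes. The sources used here name no aligner, no counter and no use of strand. TPM keep no depth, so counting precision is unknown and no count model was run.

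The 10 members and all gene lists were chosen with earlier results of these data known. The 26 rows whose names a spreadsheet had turned into dates were left out. The 11244 genes that averaged 0.5 TPM or more were tested on log2(TPM + 0.5) with limma 3.58.1 in R 4.3.3, with a variance trend and the means of the 12 groups in 1 fit of all 45 libraries (33 residual and 3.77 prior degrees of freedom). All 10 members passed this filter. P-values are two-sided and adjusted by Benjamini-Hochberg over all genes tested within a comparison. Groups follow the labels. The diet effect is ethanol minus control, the sex effect male minus female, each averaged over the other label or within it. Folds and differences are on the log2(TPM + 0.5) scale. From each list the genes named were at most the 4 with the smallest p among those called in a comparison. Same-numbered ethanol-labelled and control-labelled libraries were regarded as possible pairs where every pair of a stage and sex label deviated together at a correlation over 0.1. This held in the 4 peak pairs with the female label (0.109 to 0.222), from the data and not from the labels, and in no other set. The main fit paired no libraries, and the replicate block, an alternative, used all same-numbered pairs. The script was tested on simulated data with known changes.

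Alternatives were median-of-ratios scaling, in which each library was divided by the median ratio of its genes to their mean level, quantile normalization, pseudocounts of 0.1 and 2, no filter, a mean of at least 5 TPM, no variance trend, array weights, an adjusted p under 0.01, each stage alone, each library left out and the replicate number as a block. The order of filter and scaling was set after results had been seen, so that both scalings test the same genes. The array weights stopped before convergence. Tables and figures used Python 3.11.15 with numpy 2.4.6, pandas 2.3.3 and matplotlib 3.10.9.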

Additional observations from a re-analysis of the deposited data

Results flagged for a closer look

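Of 90 groups of 4 libraries, 1 for each member and group, 4 held a library far from the other 3 by Dixon's test, and chance flags about 1 in 20. Otc stood at 126 TPM in peak control female 4, the highest of its group. Ass1 stood at 1002 TPM in late resolution control female 3, the lowest. Oat stood at 361.8 TPM in early resolution control male 1, the highest, and without this library the control-label change of Oat from peak to early resolution passed the test. Slc25a15 stood at 176.4 TPM in late resolution control male 1, the highest.

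The sex-label difference of 4 members differed between stages by limma, in a comparison added after the data were seen. Of all genes 31.9% were called for early minus peak and 36.5% for late minus peak, near the shares of the members. For early minus peak the change was 0.68 for Otc, -0.44 for Arg1, 0.67 for Gls2 and 1.02 for Oat (log2). For late minus peak it was 0.58 for Otc, 0.94 for Gls2 and 0.95 for Oat. Of these 7 calls, Arg1 alone remained after median-of-ratios scaling.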

How the results depend on the processing

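Member values were counted in each setting for the genes and comparisons chosen for report, called or not, and not for all members in all comparisons. Apart from leaving out libraries, 585 such values kept their direction and side of the threshold, 43 newly passed it, 26 no longer did and 6 reversed. With 1 library left out the numbers were 889, 28, 86 and 7. An adjusted p under 0.01 left 0 members for the diet label at each stage and in early male-labelled livers, for the sex label at late resolution and in control-labelled livers at peak and late resolution, and for both changes within the ethanol label, and left 1 for each change of the sex-label difference. Median-of-ratios scaling called 0 for the diet label at early resolution and in early male-labelled livers, 2 at late resolution, 1 in peak female-labelled livers and 1 in late female-labelled livers, 1 for late minus peak, 4 and 3 for the changes within the ethanol label, 1 for early minus peak within the control label and 2 for the change of the sex-label difference, early minus peak. Quantile normalization called 2 for the diet label at peak and 2 at late resolution, 1 in peak and 1 in late female-labelled livers, 2 for late minus peak, 2 for the sex label in late ethanol-labelled livers, 2 for late minus peak within the ethanol label and 1 for early minus peak within the control label. Array weights called 2 for the diet label at late resolution, 2, 1 and 1 in female-labelled livers at peak, early and late resolution, 3 in male-labelled livers at early and 3 at late resolution, and 3 for late minus peak. They called 4 for the sex label at early and 4 at late resolution, 4 in peak control-labelled livers, 3 in early and 3 in late ethanol-labelled livers, 2 for the interaction at peak, 3 for late minus peak within the ethanol label, 1 and 2 within the control label, and 6 for the change of the sex-label difference, late minus peak. Fits of a stage alone called 0 for the diet label at early resolution and in early male-labelled livers, 1 for the sex label at late resolution and 0 in late control-labelled livers. With no filter 0 were called for the sex label in late control-labelled livers and for both changes within the ethanol label. These are counts of members alone, and the shares of all genes called are not given here for all of these settings. The cause of these moves was not tested.

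Some small differences reversed. Glul between the diet labels in peak female-labelled livers was -0.18 after median-of-ratios scaling, -0.0035 with array weights, -0.068 without peak control female 4 and -0.021 without peak ethanol female 3, within a range of -0.068 to 0.12 over the libraries left out. Oat in peak male-labelled livers was 0.038 without ethanol male 4 (range -0.23 to 0.038), and Cps1 in late female-labelled livers 0.016 without ethanol female 2 (range -0.78 to 0.016). Between the sex labels, Glul at peak was -0.0087 without control female 4 and -0.0041 without ethanol male 4 (range -0.0087 to 0.084). Oat in ethanol-labelled livers at peak was 0.28 after median-of-ratios scaling, 0.041 with quantile normalization and 0.0070 without ethanol female 4 (range -0.45 to 0.0070). Asl in control-labelled livers at late resolution was -0.025 after median-of-ratios scaling and -0.012 with array weights.

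With 1 library left out, the number of members called ranged from 0 to 2 for the diet label at peak, 0 to 1 at early and 0 to 2 at late resolution, 0 to 1 in peak female-labelled livers and 0 to 1 in early male-labelled livers. It ranged from 0 to 3 for the sex label at late resolution, 0 to 1 in control-labelled livers at peak and at late resolution, 0 to 1 in late ethanol-labelled livers, 0 to 3 for the change of the diet effect, late minus peak, 0 to 2 for both changes within the ethanol label, 0 to 1 for early minus peak within the control label and 2 to 5 for the change of the sex-label difference, early minus peak.

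Over 21 same-numbered pairs of ethanol-labelled and control-labelled libraries, deviations from the group means correlated at -0.371 to 0.25 across genes, and 6 of 21 correlated best with their own number. The 4 peak pairs with the female label were the one set in which every correlation was over 0.1. With the replicate block 0 members were called for the diet label there, as without it, with Gls2 at 0.60 (limma, adjusted p = 0.158) and Oat at -0.80 (adjusted p = 0.0931). At late resolution, where all 6 correlations were below 0, the block called 0 members for the diet label, against 1 without it (Slc25a15, -0.59, adjusted p = 0.0696). It changed no other count of the diet label. Depth is unknown, and 3 or 4 libraries a group limit the precision.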

Other observations

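After the group means were taken out, some members still varied together from library to library. Over the 45 libraries the residuals of Otc and Gls2 correlated at 0.761 (Pearson), those of Asl and Arg1 at 0.743 and those of Oat and Slc25a15 at 0.631. Nags and Gls2 stood at 0.513 and Cps1 and Slc25a15 at 0.511. Glul ran against Nags (-0.398), Asl (-0.394) and Otc (-0.368). These values are descriptions with no test, and the values of a library share its scaling.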
